A study of Homo sapiens with 4 samples.

Results

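The genes described here are 10 tubulin isotypes, chosen by name from the 16878 genes in the expression tables: the alpha-tubulins TUBA1A, TUBA1B, TUBA1C and TUBA4A, and the beta-tubulins TUBB, TUBB2A, TUBB2B, TUBB3, TUBB4B and TUBB6. All 10 were found by symbol in the 4 libraries, and all 10 passed the filter of a mean of 1 FPKM (fragments counted per kilobase of a transcript and relative to all fragments mapped) that left 12191 genes for testing. Total RNA was sequenced from PANC-1, an established human pancreatic cancer cell line, after transfection for 48 hours with siRNA against the deacetylase SIRT1 (siSIRT1, 2 libraries) or with a control (Control, 2 libraries). Both groups therefore come from 1 cell line, both were transfected, and each gene was silenced in the study with 1 siRNA selected for its efficiency. The sources used here do not say whether the libraries of a group came from separate cultures, so p-values measure the spread between these libraries, which may be technical.

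Alpha- and beta-tubulin pair to form the heterodimer that polymerises into microtubules, the tracks for intracellular transport and the fibres of the mitotic spindle. Each is encoded by several genes whose products are alike in the folded core and differ mostly in the acidic C-terminal tail, which lies on the microtubule surface and carries polyglutamylation and, on alpha-tubulin, the removable terminal tyrosine. Most dividing cells use a few isotypes such as TUBB, TUBB4B, TUBA1B and TUBA1C, whereas TUBB2A, TUBB2B and TUBB3 are best known from neurons and have been followed in many carcinomas as markers of altered response to taxanes.

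The comparison asks whether tubulin isotype use shifts with SIRT1 silencing, and it is the tail that tells isotypes apart. The last coding bases of the 6 beta-tubulin members are therefore shown, 5′ to 3′ from the reference genome GRCh37 and ending with the stop codon. Capitals mark the glutamate codons GAA and GAG.
TUBB, chr6:30692112-30692174, plus strand: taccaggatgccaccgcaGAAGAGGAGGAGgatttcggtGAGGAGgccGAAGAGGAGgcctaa
TUBB4B, chr9:140137946-140138008, plus strand: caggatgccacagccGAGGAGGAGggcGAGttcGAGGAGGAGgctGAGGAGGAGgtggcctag
TUBB3, chr16:90002150-90002212, plus strand: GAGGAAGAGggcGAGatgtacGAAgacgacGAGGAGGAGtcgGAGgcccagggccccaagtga
TUBB6, chr18:12326067-12326129, plus strand: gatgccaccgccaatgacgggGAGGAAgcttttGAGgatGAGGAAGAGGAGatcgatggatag
TUBB2A, chr6:3154097-3154159, minus strand: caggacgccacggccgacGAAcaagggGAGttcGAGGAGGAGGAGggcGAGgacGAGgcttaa
TUBB2B, chr6:3224985-3225047, minus strand: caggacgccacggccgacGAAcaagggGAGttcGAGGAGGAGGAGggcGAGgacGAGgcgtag
Among the last 20 codons before the stop, the beta-tubulin genes held between 7 (TUBB6) and 10 (TUBB4B) glutamate codons. TUBB2A and TUBB2B had the same tail but for the final codon and the stop. Over the whole coding sequence TUBB2A and TUBB2B were 98.2% identical, differing at 24 of 1335 aligned bases, and TUBA1A and TUBA1B were 97.2% identical. TUBB was 81.0% to 84.7% identical to the other beta-tubulin members. Of all windows of 100 bases in the reference transcript, 55.6% of those of TUBB2A, 48.7% of TUBB2B, 37.2% of TUBA1B and 21.2% of TUBA1A also occurred in a transcript of another gene, against 0.0% for TUBB6. How reads from such windows were assigned is not given in the sources used here, so the levels of TUBB2A against TUBB2B and of the TUBA1 genes against each other are uncertain. They are also given as sums.

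On GRCh37, TUBA1B (chr12:49521565-49525180, minus strand), TUBA1A (chr12:49578469-49582863, minus strand) and TUBA1C (chr12:49582519-49668383, plus strand) lie side by side. TUBA1C overlaps the start of TUBA1A on the opposite strand, and whether counting used strand is not given, so reads from the overlap cannot be told apart. TUBB2A (chr6:3153731-3157778, minus strand) and TUBB2B (chr6:3223558-3231964, minus strand) are neighbours. The other members are TUBA4A (chr2:220114432-220142624, minus strand), TUBB (chr6:30685212-30693315, plus strand), TUBB3 (chr16:89987800-90005169, plus strand), TUBB4B (chr9:140135739-140138159, plus strand) and TUBB6 (chr18:12307668-12344319, plus strand).

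SIRT1 itself averaged 10.36 ± 0.148 FPKM (SD, n = 2) in Control and 1.925 ± 0.177 FPKM (SD, n = 2) in siSIRT1, so 18.6% of its mean level remained. The libraries held an estimated 8700000 to 9170000 reads, and their summed FPKM ran from 397094 to 402197 in Control and from 408390 to 426279 in siSIRT1. All 5 epithelial keratin and EPCAM markers were present, as the cell line's label asks. Of 8 neuronal markers only SYP reached 1 FPKM, at 10.53 and 11.6 FPKM in Control against 14.61 and 13.81 FPKM in siSIRT1, and NEFL was at 0 in every library. The endothelial, fibroblast and acinar markers stayed under 1 FPKM, as did all but 1 leukocyte marker. In RNA from bulk cells, fewer cells of a type and less RNA per cell cannot be told apart.

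The alpha-tubulin mRNAs were higher in siSIRT1. TUBA1B, the main alpha-tubulin of these cells, stood at 666.2 and 656.02 FPKM in Control against 908.05 and 868.52 FPKM in siSIRT1. TUBA1C, a second widely expressed alpha-tubulin, was at 362.33 and 360.74 FPKM in Control against 464.04 and 452.29 FPKM in siSIRT1. TUBA1A, the alpha-tubulin of developing neurons, was at 164.81 and 157.07 FPKM in Control against 194.39 and 180.57 FPKM in siSIRT1. For each of these genes both siSIRT1 libraries lay above both Control libraries. TUBA4A was scarce, at 4.5 and 3.94 FPKM in Control against 5.57 and 5.69 FPKM in siSIRT1. These TUBA4A values rest on roughly 71 to 101 reads a library and did not overlap between the groups either.

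The beta-tubulin mRNAs were uneven. TUBB, the most abundant beta-tubulin, was at 875.88 and 844.88 FPKM in Control against 962.84 and 891.59 FPKM in siSIRT1. TUBB4B, also broadly expressed and abundant in cilia, was at 224.83 and 217.01 FPKM in Control against 256.05 and 249.73 FPKM in siSIRT1. Both genes were higher in siSIRT1 by a small margin, and for TUBB the gap between the nearest libraries, 15.71 FPKM, was smaller than the spread within a group. TUBB3, the beta-tubulin used as a neuronal marker, was at 90.76 and 93.89 FPKM in Control against 146.25 and 127.92 FPKM in siSIRT1. TUBB6, a divergent beta-tubulin, was at 78.66 and 82.62 FPKM in Control against 132.94 and 120.51 FPKM in siSIRT1. Each siSIRT1 library was well above both Control libraries for these genes. TUBB2A was at 15.34 and 11.76 FPKM in Control against 41.98 and 35.92 FPKM in siSIRT1. Its neighbour TUBB2B was at 4.8 and 5.42 FPKM in Control against 11.48 and 10 FPKM in siSIRT1, or roughly 79 to 184 reads a library. Among the beta-tubulin members, those lowest in Control, TUBB2A and TUBB2B, thus had the greatest relative gain. TUBB4A, a beta-tubulin outside the members, was also low in Control but rose less, from a mean of 12.22 to 16.525 FPKM.

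**Figure D1:**
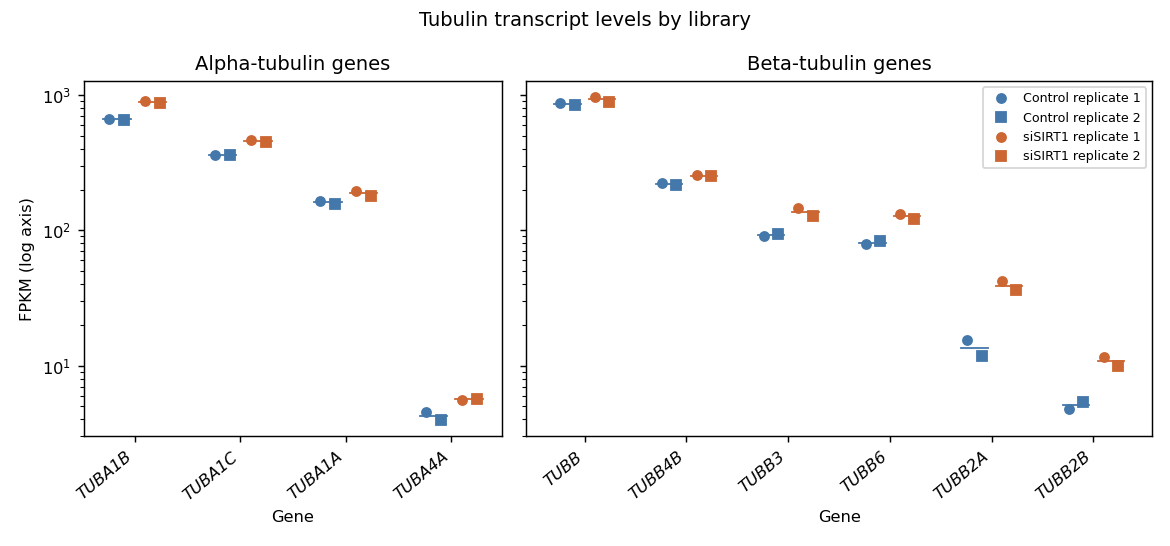
FPKM of each tubulin gene in each library on a log axis, with alpha-tubulin genes on the left and beta-tubulin genes on the right; circles are replicate 1, squares replicate 2, blue Control, orange siSIRT1, and short lines the group means. The siSIRT1 points lie above the Control points for all 10 genes, closely for TUBB (875.88 and 844.88 against 962.84 and 891.59 FPKM) and widely for TUBB2A (15.34 and 11.76 against 41.98 and 35.92 FPKM).

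The order of the levels was the same in both groups. Among the alpha-tubulins it ran TUBA1B, TUBA1C, TUBA1A and TUBA4A, and neighbours in this order did not overlap in either group. Among the beta-tubulins it ran TUBB, TUBB4B, TUBB3, TUBB6, TUBB2A and TUBB2B. TUBB3 and TUBB6 overlapped in siSIRT1 and were 1.14 times apart in Control, where they did not overlap. TUBB6 was 5.95 times the level of TUBB2A in Control and 3.25 times in siSIRT1.

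Tested with limma over all 12191 genes, 9 of the 10 members were called higher in siSIRT1 at an adjusted p under 0.05 and 0 lower. The count was 6 under median-of-ratios scaling, 6 with no filter on low values, 4 without Control replicate 1 and 4 without Control replicate 2. Over all genes tested, 24% were called higher and 13.1% lower, 37.1% in either direction. All 10 members had siSIRT1 libraries above the Control libraries without overlap, a pattern found in 43.8% of all genes tested, and in 69% when either direction counts. The median log2 fold change was 0.34 over the 4 alpha-tubulins and 0.60 over the 6 beta-tubulins, against 0.07 over all genes. At a fold above 1.2 with an unadjusted p under 0.001, 6 members passed, and 11.2% of all genes passed in that direction.

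TUBB2A had the largest change among the members, from 13.55 ± 2.53 to 38.95 ± 4.29 FPKM (mean ± SD, n = 2 each), 2.87 times its Control level. Its log2 fold change of 1.46 (SE 0.12, 95% interval 1.18 to 1.74, limma adjusted p = 7.51e-05) ranked at 40 from the top among the 12191 genes. TUBB2B rose from 5.11 ± 0.438 to 10.74 ± 1.05 FPKM (log2 fold change 0.94, SE 0.11, limma adjusted p = 0.000412). Because these copies share most of their coding sequence, they were also summed, which gave 20.14 and 17.18 FPKM in Control against 53.46 and 45.92 FPKM in siSIRT1. The sum rose by a log2 fold change of 1.37 (SE 0.10, limma adjusted p = 3.52e-05). Since FPKM divides by length and these copies differ in length, the sum lessens but does not remove the dependence on how reads were divided.

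TUBB6 rose from 80.64 ± 2.8 to 126.7 ± 8.79 FPKM (log2 fold change 0.64, SE 0.07, limma adjusted p = 0.000219). TUBB3 rose from 92.33 ± 2.21 to 137.1 ± 13 FPKM (log2 fold change 0.56, SE 0.07, limma adjusted p = 0.000622). TUBB2A, TUBB2B, TUBB3 and TUBB6 were called higher under every alternative tried, scaling, filter and left-out libraries included. Their adjusted p over the left-out libraries reached at most 0.00494. The neuronal marker SYP also rose, by a log2 fold change of 0.34 (limma adjusted p = 0.0185), while the other 7 neuronal markers did not reach 1 FPKM in any library; their part in the TUBB3 and TUBB2A values was not tested.

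The abundant beta-tubulins had the smallest fold changes of their family. TUBB4B rose from 220.9 ± 5.53 to 252.9 ± 4.47 FPKM (log2 fold change 0.19, SE 0.06, limma adjusted p = 0.0285). That call was lost under median-of-ratios scaling, where the log2 fold change was 0.11 (adjusted p = 0.278), with no filter on low values (adjusted p = 0.0516), without the mean-variance trend (adjusted p = 0.108), and without Control replicate 1 (adjusted p = 0.2) or Control replicate 2 (adjusted p = 0.337). TUBB was at 860.4 ± 21.9 and 927.2 ± 50.4 FPKM (log2 fold change 0.11, 95% interval -0.06 to 0.27, limma adjusted p = 0.276). It passed the threshold under quantile normalization (0.07, adjusted p = 0.0435) and without siSIRT1 replicate 2 (0.16, adjusted p = 0.042). The interval leaves room for a rise of TUBB as large as that of TUBB4B.

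Among the alpha-tubulins TUBA1B had the largest rise, from 661.1 ± 7.2 to 888.3 ± 28.0 FPKM (log2 fold change 0.43, SE 0.07, limma adjusted p = 0.00142). TUBA1C rose from 361.5 ± 1.12 to 458.2 ± 8.31 FPKM (log2 fold change 0.34, SE 0.06, limma adjusted p = 0.00249). Both kept their call under every scaling, but not when a Control library was left out: without Control replicate 1 the adjusted p was 0.0602 for TUBA1B and 0.0759 for TUBA1C, and without Control replicate 2 it was 0.0714 and 0.0807. TUBA1A rose from 160.9 ± 5.47 to 187.5 ± 9.77 FPKM (log2 fold change 0.22, SE 0.06, limma adjusted p = 0.0253). TUBA4A rose from 4.22 ± 0.396 to 5.63 ± 0.0849 FPKM (log2 fold change 0.35, SE 0.12, limma adjusted p = 0.0436). The calls of TUBA1A and TUBA4A did not hold under median-of-ratios scaling (adjusted p = 0.215 and 0.0963) or with no filter (0.0681 and 0.0876). The TUBA1A call was also lost without the trend (0.0986), and the TUBA4A call under quantile normalization (0.0644) and equal FPKM sums (0.103). For TUBA1A the adjusted p was 0.131 and 0.28 without Control replicate 1 and 2, and 0.0552 without siSIRT1 replicate 1. For TUBA4A it was 0.0929 and 0.285 without Control replicate 1 and 2, and 0.0798 and 0.0904 without siSIRT1 replicate 1 and 2.

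In the deposited FPKM values the median log2 fold change of all genes was 0.074. A difference of scale between libraries and a broad rise cannot be told apart here. Median-of-ratios scaling, which centres this median by its design, moved it to -0.002. The calls went from 2930 higher and 1591 lower to 2023 higher and 2053 lower. Under that scaling all 10 members still had a positive log2 fold change, from 0.02 for TUBB to 1.38 for TUBB2A. Of these, 6 were called higher, TUBA1B, TUBA1C, TUBB2A, TUBB2B, TUBB3 and TUBB6, against 16.6% of all genes.

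**Figure D2:**
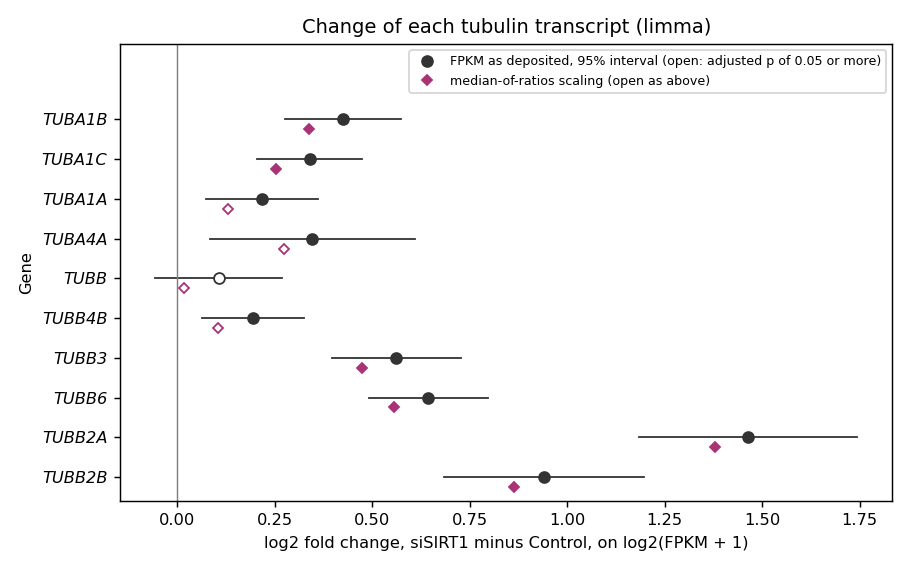
Log2 fold change of each tubulin gene, siSIRT1 minus Control, on the log2(FPKM + 1) scale; black circles with 95% intervals are the limma values on the FPKM as deposited, purple diamonds those after median-of-ratios scaling, and open symbols have an adjusted p of 0.05 or more. TUBB lies nearest to 0 at 0.11, TUBB2A farthest at 1.46, and every diamond sits to the left of its circle.

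Isotype use was then read as the share of each member in the summed FPKM of its family within a library, a ratio that no scaling between libraries can move. TUBB made up 67.9% and 67.3% of beta-tubulin in Control and 62.1% in each siSIRT1 library. TUBB6 made up 6.1% and 6.58% in Control and 8.57% and 8.39% in siSIRT1. TUBB3 made up 7.03% and 7.48% in Control against 9.43% and 8.91% in siSIRT1. The beta-tubulin pool thus held a smaller share of TUBB and larger shares of minor isotypes. The level of TUBB itself did not fall, with means of 860.4 FPKM in Control and 927.2 FPKM in siSIRT1. It carried 30.3% of the gain in summed beta-tubulin FPKM, and a share falls when other members rise more. TUBB2A went from 1.19% and 0.937% to 2.71% and 2.5%, and TUBB2B from 0.372% and 0.432% to 0.74% and 0.697%. TUBB4B, at 17.4% and 17.3% in Control and 16.5% and 17.4% in siSIRT1, overlapped between the groups. In mean share TUBB was lower by -5.51 percentage points, TUBB6 higher by 2.14, TUBB3 by 1.91, TUBB2A by 1.54 and TUBB2B by 0.316.

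The libraries were then scaled to an equal beta-tubulin sum, so that a fold change is a change of share. In that fit limma called 5 of the 6 beta-tubulin shares different. It also called 32.2% of all genes, 1025 higher and 2901 lower. Because the beta-tubulin sum was higher in siSIRT1, dividing by it lowers other genes, so 32.2% is no background rate for the shares. The share of TUBB2A rose by a log2 fold change of 1.25 (SE 0.11, limma adjusted p = 2.2e-05), and that of TUBB2B by 0.74 (SE 0.13, limma adjusted p = 0.0016). The shares of TUBB6 and TUBB3 rose by 0.42 (SE 0.06, limma adjusted p = 0.000385) and 0.34 (SE 0.06, limma adjusted p = 0.0014). The share of TUBB fell by 0.12 on the log2 scale (SE 0.03, limma adjusted p = 0.0111). The rises passed the threshold under every alternative, while the fall of TUBB did not without the mean-variance trend (adjusted p = 0.311) or without Control replicate 1 (adjusted p = 0.0687). The exact two-sided permutation test over the 4 libraries has 6 splits and cannot go below 0.333, the value it gave for each of these 5 shares.

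The mean alpha-tubulin shares differed between the groups by at most 2.04 percentage points. TUBA1B made up 55.6% and 55.7% of alpha-tubulin in Control and 57.8% and 57.6% in siSIRT1, and TUBA1C 30.2% and 30.6% against 29.5% and 30.0%. Neither change of share passed the threshold, with log2 fold changes of 0.05 (limma adjusted p = 0.253) and -0.03 (limma adjusted p = 0.507). TUBA1A made up 13.8% and 13.3% in Control and 12.4% and 12% in siSIRT1, a fall of its share with a log2 fold change of -0.15 (SE 0.05, limma adjusted p = 0.0206). That call was lost without the mean-variance trend (adjusted p = 0.153) and without Control replicate 1 (0.178) or Control replicate 2 (0.0816). TUBA4A stayed at 0.335% to 0.378% in all 4 libraries, and its groups overlapped, while those of TUBA1A, TUBA1B and TUBA1C did not. Among 4 alpha-tubulin shares 1 was thus called. In the fit scaled to the alpha-tubulin sum 50.1% of all genes were called, 673 higher and 5429 lower. Because that sum was higher in siSIRT1, dividing by it lowers other genes, so 50.1% is no background rate for the shares.

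**Figure D3:**
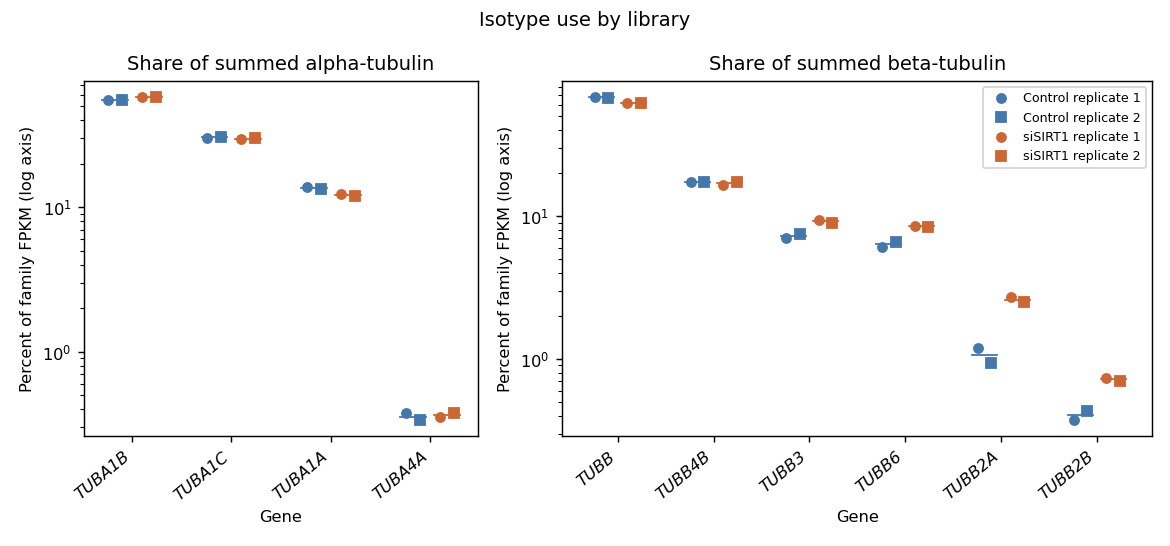
Share of each gene in the summed alpha-tubulin FPKM (left) or beta-tubulin FPKM (right) of its library, in percent on a log axis; circles are replicate 1, squares replicate 2, blue Control, orange siSIRT1, and short lines the group means. TUBB drops from 67.9% and 67.3% to 62.1%, and TUBB3, TUBB6, TUBB2A and TUBB2B move up. The alpha-tubulin points lie close together on the log axis, though TUBA1B goes from 55.6% and 55.7% to 57.8% and 57.6%.

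Summed over its 4 members, alpha-tubulin came to 1197.8 and 1177.8 FPKM in Control against 1572.0 and 1507.1 FPKM in siSIRT1, 29.6% higher in the mean. The log2 fold change of the sum was 0.37 (SE 0.07, limma adjusted p = 0.00431), and 0.29 under median-of-ratios scaling (adjusted p = 0.0473). It missed the threshold without Control replicate 1 (adjusted p = 0.161) or Control replicate 2 (adjusted p = 0.185). TUBA1B carried 64.6% of the gain and TUBA1C 27.5%. Beta-tubulin came to 1290.3 and 1255.6 FPKM in Control against 1551.5 and 1435.7 FPKM in siSIRT1, 17.3% higher in the mean. Its log2 fold change of 0.23 (SE 0.08, limma adjusted p = 0.044) missed the threshold under median-of-ratios scaling (0.14, adjusted p = 0.31), with no filter (adjusted p = 0.117), without the trend (adjusted p = 0.0847) and without Control replicate 1 (adjusted p = 0.38) or Control replicate 2 (adjusted p = 0.468).

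The ratio of alpha- to beta-tubulin FPKM came to 0.928 and 0.938 for Control against 1.01 and 1.05 for siSIRT1. The groups did not overlap, with the smallest p the exact permutation test allows, 0.333. All 10 members together took 0.619% and 0.613% of the summed FPKM in Control and 0.733% and 0.721% in siSIRT1.

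TUBB2A and TUBB2B, the neighbours with the largest rises among the members, are shown with the 250 bases before their RefSeq start (GRCh38.p14), written 5′ to 3′. Capitals mark matches on either strand to TGACGTCA (the cAMP response element), to its part TGACG, to the TATA box TATAAA, to the TATA-like ATAAAA, to the box named CCAAT and to the GC box GGGCGG, some of which overlap.
TUBB2A, chr6:3157545-3157794, minus strand: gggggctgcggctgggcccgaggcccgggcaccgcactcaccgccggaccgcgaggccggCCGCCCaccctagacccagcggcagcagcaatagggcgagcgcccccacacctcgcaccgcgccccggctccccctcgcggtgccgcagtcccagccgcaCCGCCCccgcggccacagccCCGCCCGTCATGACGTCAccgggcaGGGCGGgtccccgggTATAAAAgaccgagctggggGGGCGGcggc
TUBB2B, chr6:3227654-3227903, minus strand: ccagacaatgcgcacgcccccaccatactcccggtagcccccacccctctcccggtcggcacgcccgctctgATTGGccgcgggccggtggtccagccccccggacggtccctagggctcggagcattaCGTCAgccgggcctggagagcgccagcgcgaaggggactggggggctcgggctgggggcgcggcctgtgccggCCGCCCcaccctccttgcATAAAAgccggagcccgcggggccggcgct
TUBB2A held TGACGTCA with its first base 60 bases before the start, a match found in 1.63% of 34943 promoter windows of that length and in no other member. It also held TATAAA at 30 bases before the start, which 10.75% of the windows have. TUBB2B held the overlapping ATAAAA at the same distance, present in 14.86% of windows, and TGACG at 121 bases before the start, present in 21.18%. TGACG was also in a window of TUBB2A, of TUBB and of TUBB4B. CCAAT was in a window of 7 members and GGGCGG in a window of 8, and 32.04% and 42.55% of all windows have them. TUBA1C, TUBB, TUBB3 and TUBB6 have several windows, not all with a match. A count of members is therefore not comparable with a share of windows. These are letter matches only.

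Of 13 further tubulin genes, 12 were in the tables and 5 passed the filter. TUBB4A, a beta-tubulin best known from brain, was at 12.64 and 11.8 FPKM in Control against 17.18 and 15.87 FPKM in siSIRT1, a log2 fold change of 0.41 (SE 0.09, limma adjusted p = 0.00654), which without Control replicate 2 had an adjusted p of 0.0642. TUBE1, the epsilon-tubulin of centrioles, fell from 12.48 and 11.89 to 8.97 and 7.29 FPKM (log2 fold change -0.54, SE 0.11, limma adjusted p = 0.00585). Neither gamma-tubulin gene, whose products nucleate microtubules, passed the test. TUBG1 was at 48.63 and 50.19 FPKM in Control against 51.08 and 49.04 FPKM in siSIRT1, with a log2 fold change of 0.02 (limma adjusted p = 0.841) that was -0.07 under median-of-ratios scaling. TUBG2 was at 23.63 and 24.21 FPKM in Control against 21.67 and 19.11 FPKM in siSIRT1, with a log2 fold change of -0.22 (limma adjusted p = 0.0618). It was called lower under median-of-ratios scaling (-0.31, adjusted p = 0.0248), quantile normalization (-0.30, adjusted p = 0.0269) and equal FPKM sums (-0.28, adjusted p = 0.0216). The log2 fold change was -0.31 without siSIRT1 replicate 1 and -0.14 without siSIRT1 replicate 2. TUBD1, the delta-tubulin of centrioles, overlapped between the groups (adjusted p = 0.399). TUBA3C, TUBA3D, TUBA3E, TUBA8, TUBAL3, TUBB1 and TUBB8 stayed under 1 FPKM in every library, and TUBB8 was listed at 0 in both Control libraries. TUBA4B was not analysed here.

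Tubulin folds through prefoldin, the chaperonin CCT and the tubulin cofactors, and 12 of the 21 genes of this folding list were called higher and 0 lower, with a median log2 fold change of 0.19, where 24% of all genes were called higher. Under median-of-ratios scaling 7 were called higher and 0 lower, against 16.6% of all genes called higher. CCT3, a chaperonin subunit, rose from 167.96 and 170.06 to 240.49 and 229.03 FPKM (log2 fold change 0.47, limma adjusted p = 0.00047). TCP1, another subunit, rose from 77.21 and 78.41 to 104.0 and 109.75 FPKM (0.45, limma adjusted p = 0.000624). PFDN5, a prefoldin subunit, rose from 119.17 and 108.87 to 165.28 and 146.07 FPKM (0.45, limma adjusted p = 0.00243). Of 8 proliferation genes 5 were called higher and 0 lower, against the same 24% of all genes, with a median log2 fold change of 0.35. PLK1, a mitotic kinase, had a log2 fold change of 0.50, MKI67, the Ki-67 antigen, 0.50, and CDK1, the mitotic cyclin-dependent kinase, 0.49 (limma adjusted p = 0.000353, 0.00081 and 0.00207). Their part in the tubulin values was not tested.

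Tubulin mRNA is degraded when free dimers are in excess, a feedback for which the ribosome-bound factor TTC5 with SCAPER and the CCR4-NOT subunit CNOT11 is known. None of these genes passed the test. TTC5 was at 2.96 and 3.11 FPKM in Control against 3.37 and 3.78 FPKM in siSIRT1 (log2 fold change 0.18, limma adjusted p = 0.284), SCAPER at 1.63 and 1.62 against 2.07 and 2.13 FPKM (0.24, adjusted p = 0.178), and CNOT11 at 22.8 and 22.28 against 25.11 and 25.18 FPKM (0.15, adjusted p = 0.117).

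Genes that modify tubulin moved in different directions. In the acetylation list HDAC6, the main alpha-tubulin deacetylase, fell from 33.06 and 33.35 to 22.09 and 22.58 FPKM (log2 fold change -0.55, SE 0.07, limma adjusted p = 0.000433). SIRT2, also an alpha-tubulin deacetylase, rose from 65.02 and 62.16 to 81.81 and 73.99 FPKM (0.29, limma adjusted p = 0.011), a call lost under median-of-ratios scaling (0.20, adjusted p = 0.0779), without the trend (0.0538) and without Control replicate 1 (0.0519) or Control replicate 2 (0.116). ATAT1, the acetyltransferase, was at 10.59 and 10.41 against 10.24 and 10.48 FPKM (log2 fold change -0.02, limma adjusted p = 0.895). Of this list of 3 genes 1 was thus called higher and 1 lower, where 37.1% of all genes were called in either direction. Under median-of-ratios scaling 0 were called higher and 1 lower, against 2023 higher and 2053 lower among all 12191 genes.

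Of the 14 tested genes for tyrosination and glutamylation, 5 were called higher and 1 lower. That was near the 37.1% of all genes called in either direction, and the median log2 fold change was 0.10. Under median-of-ratios scaling 2 were called higher and 2 lower, against 2023 higher and 2053 lower among all 12191 genes. TTL, which restores the terminal tyrosine of alpha-tubulin, fell from 14.79 and 15.77 to 8.99 and 9.86 FPKM (log2 fold change -0.64, SE 0.09, limma adjusted p = 0.000923). VASH1, a carboxypeptidase that removes this tyrosine, was low, at 2.3 and 1.7 FPKM in Control against 3.27 and 3.0 FPKM in siSIRT1 (0.47, limma adjusted p = 0.0322). The VASH1 call was lost under median-of-ratios scaling (adjusted p = 0.0586), quantile normalization (0.0556) and equal FPKM sums (0.0528), with no filter (0.0888), without Control replicate 2 (0.244), and without siSIRT1 replicate 1 (0.109) or siSIRT1 replicate 2 (0.0585). TTLL7, a polyglutamylase that acts on beta-tubulin tails, rose from 6.74 and 6.51 to 12.67 and 14.53 FPKM (0.93, SE 0.10, limma adjusted p = 0.000255). TPGS2, a subunit of a polyglutamylase complex, was at 24 and 19.89 against 28.44 and 29.7 FPKM (0.40, limma adjusted p = 0.0106), with an adjusted p of 0.0629 with no filter, 0.114 without Control replicate 2 and 0.0519 without siSIRT1 replicate 2.

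Among 20 tested stabilising and plus-end proteins 7 were called higher and 1 lower. That was near the 37.1% of all genes called in either direction, and the median log2 fold change was 0.03. Under median-of-ratios scaling 5 were called higher and 3 lower, against 2023 higher and 2053 lower among all 12191 genes. MAP2, the microtubule-associated protein of dendrites, rose from 4.22 and 4.3 to 11.96 and 14.38 FPKM (log2 fold change 1.42, SE 0.11, limma adjusted p = 6.05e-05), close in size to TUBB2A. MAP1S, a widely expressed relative of MAP1B, rose from 14.9 and 14.89 to 20.67 and 20.34 FPKM (0.44, limma adjusted p = 0.00231), and MAPRE1, the plus-end protein EB1, from 46.38 and 46.93 to 62.51 and 62.6 FPKM (0.42, limma adjusted p = 0.000909). MAP1B, a neuronal microtubule-associated protein, went the other way, from 18.2 and 19.26 to 13.46 and 16.23 FPKM (-0.32, limma adjusted p = 0.033). The MAP1B call was lost with no filter (adjusted p = 0.104), without the trend (0.0689), and without Control replicate 1 (0.0833), Control replicate 2 (0.174) or siSIRT1 replicate 1 (0.11).

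Of 12 destabilising and severing proteins 1 was called higher and 1 lower, where 37.1% of all genes were called in either direction. STMN3, a stathmin-family protein that sequesters tubulin dimers, fell from 19.2 and 17.72 to 7.55 and 5.55 FPKM (log2 fold change -1.38, SE 0.13, limma adjusted p = 0.000132). KIF18B, a mitotic kinesin that acts at microtubule plus ends, rose from 16.62 and 16.75 to 22.66 and 22.25 FPKM (0.41, limma adjusted p = 0.00285). Of 10 nucleation genes 1 was called higher and 2 lower, near that share of all genes. MZT2A, a small subunit of gamma-tubulin complexes, rose from 44.21 and 55.44 to 77.82 and 68.76 FPKM (0.55, limma adjusted p = 0.00408), a call lost with no filter (adjusted p = 0.052). MZT1, a related small subunit, fell from 1.56 and 2.17 to 0.65 and 0.78 FPKM (-0.73, limma adjusted p = 0.00675), with an adjusted p of 0.0602 without Control replicate 2. TUBGCP6, a large subunit of the gamma-tubulin ring complex, was at 12.44 and 12.86 against 10.37 and 10.56 FPKM (-0.25, limma adjusted p = 0.0474), a call lost when any 1 of the 4 libraries was left out (adjusted p = 0.0597 to 0.271), with no filter (0.0604) and without the trend (0.0533).

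**Figure D4:**
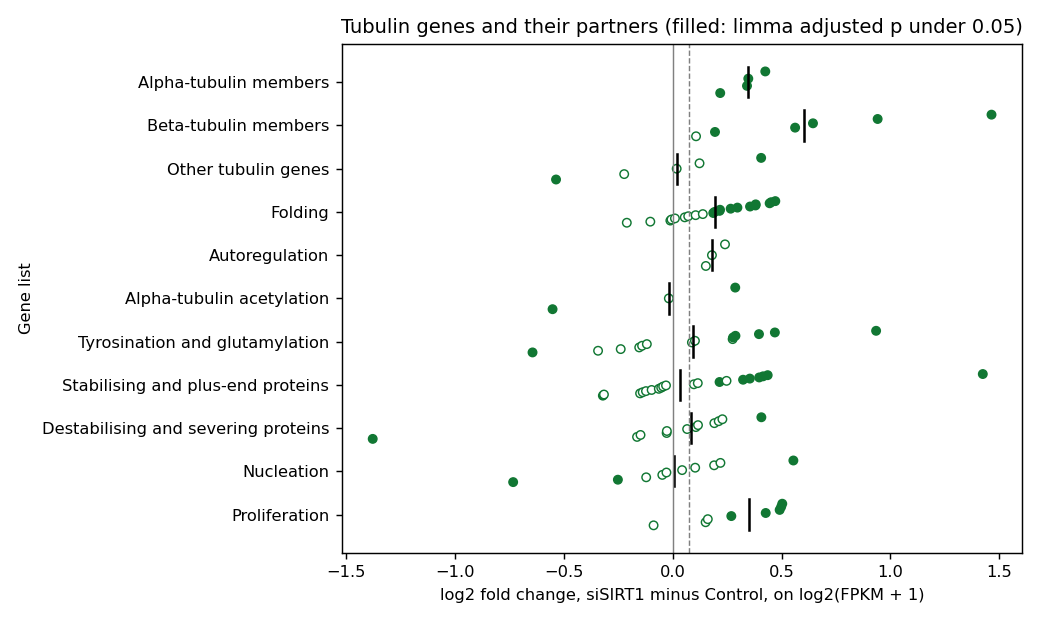
Log2 fold change, siSIRT1 minus Control on the log2(FPKM + 1) scale, of every tested gene in the tubulin families and in each list of tubulin partners; filled points have a limma adjusted p under 0.05, short black lines are list medians, and the dashed line is the median of all genes at 0.074. The medians of the tubulin members and of the folding, autoregulation and proliferation lists lie well to the right of the dashed line. Single genes such as STMN3 (-1.38) and MAP2 (1.42) stand far out in lists whose medians are near that line.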

How the data were processed

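RNA-seq was performed on 2 Control and 2 siSIRT1 libraries of PANC-1 cells, grouped by the treatment label. The authors deposited 1 table of FPKM values per library. The submitters' processing notes name HISAT, Bowtie2, RSEM and ChIPseeker without roles or versions, and the aligner settings, genome build and strand setting of the RNA-seq are not given in the sources used here. FPKM divides by length and library total, so it removes neither differences in composition nor ambiguity between near-identical copies.

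From the deposited FPKM, genes averaging 1 FPKM or more over the libraries were tested on log2(FPKM + 1) with limma 3.58.1 (empirical Bayes with a mean-variance trend) in R 4.3.3, two-sided, with Benjamini-Hochberg adjustment over all genes tested and a threshold of 0.05. Fold changes are on that scale and understate changes of low genes. Family sums and sums of near-identical copies replaced their members in the same fit. Shares were tested by limma after scaling libraries to an equal family sum, and by exact permutation. The model scripts were tested on simulated data. Reads per library were estimated from the step that 1 read makes in low FPKM values, taking transcript length less 80 bases, and are approximate. Alternatives were other scalings, a pseudocount of 0.1, no filter, no trend, a replicate block and each library left out.

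Named were SIRT1, the members, the other tubulin genes, and, from each list of partners, the called genes with the 3 largest rises and falls, with the autoregulation and acetylation lists in full. SYP was named after its values were seen. Members and lists were chosen with earlier results of these data known. Gene positions and coding sequences came from GRCh37 with GENCODE annotation, promoters from RefSeq, GRCh38.p14, and 16846 of 16878 gene identifiers matched RefSeq names. The ends of the alpha-tubulin coding sequences are not reported here.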

Additional observations from a re-analysis of the deposited data

How the results depend on the processing

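With 2 libraries a group, spread was estimated from few values, and leaving out a library left 1 sample that was assumed to vary like the other group. Of the 110 member results under alternatives none changed direction. The count of members called higher ran from 4 to 9 over the left-out libraries, with 4 without either Control library (TUBB2A, TUBB2B, TUBB3 and TUBB6), and the count over all genes fell from 4521 to 2744 and 2691 without Control replicate 1 and 2. The count of called genes in the partner lists (33, proliferation and other tubulins not included) ran from 14 to 30. The genes tested in these lists were 21 for folding, 3 for autoregulation, 3 for acetylation and 14 for tyrosination and glutamylation. A further 20 were stabilising and plus-end, 12 destabilising and severing, and 10 nucleation genes. In the main fit 37.1% of all genes were called, and an excess of the lists over that share was not tested. Over the left-out libraries the log2 fold change of the alpha-tubulin sum ran from 0.34 to 0.40, as did that of TUBA1A, TUBA1B and TUBA1C summed. That of the beta-tubulin sum ran from 0.174 to 0.285. The beta-tubulin sum lost its call under median-of-ratios scaling (0.14, adjusted p = 0.31), with no filter (0.23, adjusted p = 0.117) and without the trend (0.23, adjusted p = 0.0847).

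Among the genes and shares given in the text, sign changes were seen for the shares of TUBA4A and TUBB4B and for TUBG1 and TUBD1, and none of these was called. Over the left-out libraries the log2 fold change of the TUBA4A share ran from -0.032 to 0.107 (-0.032 without Control replicate 2, -0.001 without siSIRT1 replicate 2), that of the TUBB4B share from -0.072 to 0.003 (0.003 without siSIRT1 replicate 1), that of TUBG1 from -0.010 to 0.047 (-0.004 without Control replicate 1, -0.010 without siSIRT1 replicate 1) and that of TUBD1 from -0.002 (without Control replicate 1) to 0.248. TUBG1 was also negative under quantile normalization (-0.059), median-of-ratios scaling (-0.068) and equal sums (-0.043). The cause was not tested.

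Replicate numbers are shared between the groups, but with 2 pairs and a correlation of 0.123 between same-numbered deviations they were not taken to pair the samples. With the replicate number as a block, 9 members, 6 shares and 35 partner genes were called, and TUBG2 passed the threshold (limma adjusted p = 0.0287). Calls rose over all genes too, from 4521 to 5393 of 12191. In the fits scaled to the alpha- and beta-tubulin sums they rose from 6102 to 6978 and from 3926 to 5078.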
